A study of Arabidopsis thaliana with 15 samples.

Results

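Late recovery was compared with growth light in leaves of Arabidopsis thaliana Col-0, the wild-type accession in which all samples of the study were taken. R60 leaves (n = 3) had received 60 min of high light (HL, a photon flux of 1000 µmol per square metre and second) and then 60 min of recovery at growth light. GL leaves (n = 3) came from plants kept at growth light (GL, a flux of 100 µmol in the same unit) and, by their labels, were taken before the HL treatment. All plants had grown for 6 to 7 weeks at that growth light in an 8 h photoperiod. Leaves harvested at the end of 60 min of HL (HL60, n = 3) and after 15 min of recovery (R15, n = 3) are given beside them where they bear on a gene. Of the 21593 genes in the table, 20512 had a sum of 10 or more over all 15 libraries and were tested, and the other 1081 were left out. No GL leaves were harvested at the time of day of the R60 leaves, so the hours that passed and the light the leaves had seen cannot be told apart in any value below.

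Values are normalised counts, the read estimates of a gene in a library after the study's scaling between libraries. A log2 fold change is R60 over GL on the scale of log2(normalised count + 1), with its standard error (SE), and a gene was called when its Benjamini-Hochberg adjusted p from limma was under 0.05 and the change was at least 2-fold. By that rule 2202 genes (10.7% of those tested) were higher in R60 leaves than in GL leaves and 1749 (8.53%) were lower. The median log2 fold change over all genes tested was -0.02. The 10 highest genes took between 7.86% and 9.07% of R60 libraries and between 12.2% and 12.3% of GL libraries. R60 replicate 1 stood somewhat apart from the other R60 libraries (r = 0.971 and 0.976 against 0.983 between replicates 2 and 3, across genes on the log2 scale). Without it 2240 genes were called higher and 1808 lower, and its list medians are given beside several gene groups in which it differed. HL60 replicate 1 stood apart as well (r = 0.941 and 0.926, against 0.984 between the other two).

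**Figure D1:**
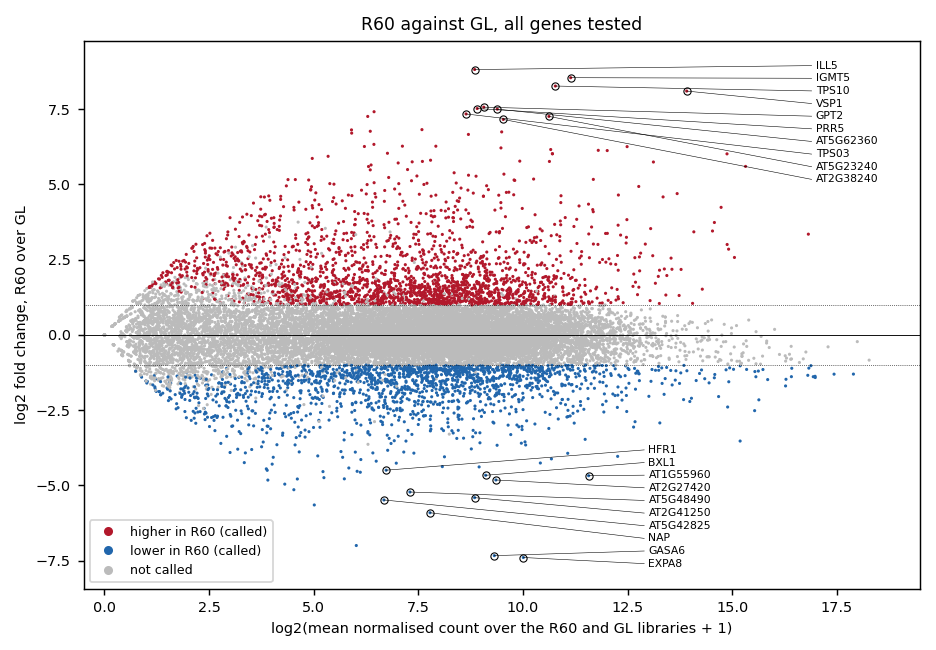
Log2 fold change of R60 over GL (vertical axis) against log2(mean normalised count + 1) over the R60 and GL libraries (horizontal axis), 1 point for each of the 20512 genes tested. The 2202 genes called higher are red, the 1749 called lower are blue, dotted lines mark 2-fold, and circled points are the 10 largest rises and 10 largest falls among genes with a mean of 100 or more, led by ILL5 (8.82) and EXPA8 (-7.40).

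Mesophyll markers gave the highest counts of the cell type lists, as a whole leaf would. The summed level of the 4 mesophyll markers was between 616230 and 806810 in R60 libraries, against between 1158500 and 1175300 in GL libraries (0.603-fold between the group means), and 1 of them, RCA, was called lower. The 4 epidermis and trichome markers summed to between 7426 and 7701 in R60 libraries, against between 11409 and 12781 in GL libraries, with none called. Guard cell, xylem and flower markers showed no member past the call rule, and the flower gene AP3 was at 0.892, 1.6 and 1.11 normalised counts in R60 leaves, against 1.11, 2.99 and 6.6 in GL leaves. Of the 4 phloem markers, SWEET12, a sucrose exporter of phloem parenchyma cells, was called (log2 fold change 5.39 ± 0.87, limma adjusted p = 0.000161) and SUC2, the sucrose loader of companion cells, was at 1781, 2110.4 and 1966 in R60 leaves, against 2161, 2369 and 2509.6 in GL leaves. In whole leaves, fewer cells of a type and less RNA per cell cannot be told apart.

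Several programmes of leaf cells are known to answer to strong light and to the hour. Jasmonate (JA), a lipid-derived hormone made through lipoxygenase and allene oxide enzymes, releases defence and wound genes when the JAZ repressors are degraded. Heat shock factors drive chaperones that refold proteins. The circadian clock is a loop of morning factors such as CCA1 and LHY and of day and evening factors such as PRR5 and TOC1, each repressing the other, and it times photosynthesis, starch and growth genes through short promoter elements.

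Promoter sequences of clock, starch and chaperone genes are printed here because the element counts that follow are given for these lists. The promoter window ran from 250 bases before to 50 bases after the gene start of RefSeq TAIR10.1, and each sequence is written 5′ to 3′ on the gene's strand. The first group holds the evening element, searched as AAAATATCT on both strands, which clock factors bind; capitals mark each match.
PRR5, chr5:8358497-8358796 on the minus strand: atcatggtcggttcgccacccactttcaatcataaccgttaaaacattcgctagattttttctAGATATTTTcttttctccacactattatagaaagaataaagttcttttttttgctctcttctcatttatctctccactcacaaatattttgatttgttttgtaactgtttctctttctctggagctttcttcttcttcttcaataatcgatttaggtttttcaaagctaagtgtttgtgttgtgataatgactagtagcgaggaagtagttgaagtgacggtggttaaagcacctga
GRP7, chr2:9266508-9266807 on the minus strand: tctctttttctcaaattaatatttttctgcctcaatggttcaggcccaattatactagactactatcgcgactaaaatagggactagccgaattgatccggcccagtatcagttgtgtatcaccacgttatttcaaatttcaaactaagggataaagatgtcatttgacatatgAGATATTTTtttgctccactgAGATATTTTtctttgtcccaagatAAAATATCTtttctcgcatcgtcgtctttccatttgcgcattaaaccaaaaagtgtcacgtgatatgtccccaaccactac
PWD, chr5:9261229-9261528 on the plus strand: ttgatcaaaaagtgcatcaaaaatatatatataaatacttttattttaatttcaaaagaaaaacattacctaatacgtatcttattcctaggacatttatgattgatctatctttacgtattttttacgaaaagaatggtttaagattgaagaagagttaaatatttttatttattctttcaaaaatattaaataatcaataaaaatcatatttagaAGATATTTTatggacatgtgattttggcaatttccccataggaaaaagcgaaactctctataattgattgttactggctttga

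The evening element was in 7 of 15 day and evening clock promoters, 2 of 14 morning clock promoters and 5 of 33 starch promoters. It was in 2.99% of all 20337 promoters, 7.14% of those of genes called higher and 1.49% of those of genes called lower. GRP7 carried 3 matches, with first bases 76, 55 and 31 bases before the gene start. The second group holds the G-box, searched as CACGTG, which reads the same on both strands and is bound by bHLH and bZIP factors.
LHY, chr1:37822-38121 on the minus strand: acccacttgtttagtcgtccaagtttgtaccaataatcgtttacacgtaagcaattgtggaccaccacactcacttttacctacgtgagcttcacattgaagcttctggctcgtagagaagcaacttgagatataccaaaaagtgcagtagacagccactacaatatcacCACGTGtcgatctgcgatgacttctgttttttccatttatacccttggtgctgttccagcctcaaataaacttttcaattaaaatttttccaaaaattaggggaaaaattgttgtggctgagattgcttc
CCA1, chr2:19245341-19245640 on the plus strand: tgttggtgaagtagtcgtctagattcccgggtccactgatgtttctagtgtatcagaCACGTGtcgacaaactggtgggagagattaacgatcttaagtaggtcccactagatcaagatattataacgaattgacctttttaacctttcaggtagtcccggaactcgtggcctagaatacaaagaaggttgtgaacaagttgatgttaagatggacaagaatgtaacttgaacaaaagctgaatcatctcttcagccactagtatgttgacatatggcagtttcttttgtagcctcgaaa

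The G-box was in 10 of the 14 morning clock promoters, 11 of the 33 starch promoters and 7 of the 49 promoters of JA synthesis, JAZ, turnover and output genes. Further counts were 3 of 15 day and evening clock, 5 of 21 antenna, 2 of 9 tryptophan and 6 of 39 heat shock promoters. The G-box was in 8.81% of all promoters, 11.2% of those of genes called higher and 11.8% of those of genes called lower. The third group holds the heat shock element, searched on both strands as GAANNTTCNNGAA, whose reverse complement is TTCNNGAANNTTC.
HSP17.4, chr3:16984818-16985117 on the minus strand: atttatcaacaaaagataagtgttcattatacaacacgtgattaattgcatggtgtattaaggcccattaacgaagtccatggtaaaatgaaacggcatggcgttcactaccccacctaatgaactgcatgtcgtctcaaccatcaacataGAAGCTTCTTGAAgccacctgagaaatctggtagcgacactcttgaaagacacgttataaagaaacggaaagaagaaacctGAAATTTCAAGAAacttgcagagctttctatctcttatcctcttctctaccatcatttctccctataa
HSFA2, chr2:11135374-11135673 on the plus strand: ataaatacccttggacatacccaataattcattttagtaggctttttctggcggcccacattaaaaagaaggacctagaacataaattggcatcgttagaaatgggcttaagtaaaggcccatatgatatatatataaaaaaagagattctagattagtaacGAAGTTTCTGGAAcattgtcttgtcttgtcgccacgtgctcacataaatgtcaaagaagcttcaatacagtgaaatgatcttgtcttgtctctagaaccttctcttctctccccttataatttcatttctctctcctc

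This element was in 8 of the 39 promoters of the heat shock list, against 0.546% of all promoters. A match is a description of the letters, and binding was not measured.

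The 10 largest rises among genes with a mean of 100 or more included enzymes, a sugar phosphate transporter, a storage protein gene and 1 clock gene, PRR5. ILL5 encodes an amidohydrolase of hormone conjugates and had 1190.0, 475 and 1084 normalised counts in R60 leaves, against 0, 0 and 5.65 in GL leaves. IGMT5, an indole glucosinolate methyltransferase, had 4625, 3517 and 5369 normalised counts in R60 leaves, against 5.54, 7.98 and 27.3 in GL leaves (log2 fold change 8.55 ± 0.63, limma adjusted p = 1.15e-07). The lowest R60 library was more than 100 times the highest GL library. TPS10 (AT2G24210), a terpene synthase, had 2848, 3559.6 and 4064 normalised counts in R60 leaves, against 16.6, 2.99 and 18.8 in GL leaves (log2 fold change 8.27 ± 1.33, limma adjusted p = 0.000158). Its relative TPS03 had 939, 393 and 1043 in R60 leaves, against 2.11, 1.32 and 11.5 in GL leaves. GPT2 moves glucose 6-phosphate into plastids and had 592, 1813 and 789 normalised counts in R60 leaves, against 4.43, 2.99 and 4.71 in GL leaves (log2 fold change 7.57 ± 0.30, limma adjusted p = 5.44e-10), so R60 replicate 2 was the highest and even the lowest R60 library was far above GL. In HL60 leaves GPT2 was at 1396, 2181 and 1744. AT5G23240, annotated as a DNAJ-domain protein, had 3004, 2875 and 3510.1 normalised counts in R60 leaves, against 26.6, 13 and 20.7 in GL leaves (log2 fold change 7.26 ± 0.38, limma adjusted p = 6.74e-09), and AT5G62360, annotated as a pectin methylesterase inhibitor relative, had 1159.7, 1692 and 1139 in R60 leaves, against 9.98, 2.99 and 7.54 in GL leaves. AT5G23240 was also higher in R60 than in HL60 leaves (log2 fold change 4.64 ± 0.38, adjusted p = 3.43e-07).

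The 10 largest falls came from genes of different kinds. EXPA8, an expansin that loosens cell walls, had 8.03, 8.78 and 18.9 normalised counts in R60 leaves, against 1763, 2409 and 1974 in GL leaves (log2 fold change -7.40 ± 0.48, limma adjusted p = 3.77e-08). GASA6, a gibberellin-regulated peptide gene, had 12.5, 5.59 and 4.44 normalised counts in R60 leaves, against 1257, 1285 and 1255 in GL leaves (log2 fold change -7.33 ± 0.42, limma adjusted p = 1.33e-08). NAP, a NAC factor of leaf senescence, had 11.6, 1.6 and 10 in R60 leaves, against 439, 359.99 and 490.1 in GL leaves. AT1G55960, annotated as a polyketide cyclase or lipid transport protein, had 258, 215 and 212 normalised counts in R60 leaves, against 5783, 5839 and 5936 in GL leaves (log2 fold change -4.68 ± 0.11, limma adjusted p = 2.65e-12), with little spread in either group. AT2G41250, a haloacid dehalogenase-like hydrolase gene, had 28.5, 18.4 and 15.6 in R60 leaves, against 895, 927 and 869.8 in GL leaves. AT2G27420, a cysteine protease gene, was low in R60 leaves at 61.6, 30.3 and 44.4, against 1302, 1285 and 1197 in GL leaves, yet it had been at 8309, 5189 and 3261 in HL60 leaves. BXL1, a beta-xylosidase of the cell wall, had 51.7, 32.7 and 40 in R60 leaves, against 1068, 959 and 1156 in GL leaves. AT5G42825 was at 64.2, 0 and 0 in R60 leaves, against 165, 157 and 222 in GL leaves. AT5G48490, annotated as a lipid transfer protein relative, was at 0, 16.8 and 26.7 in R60 leaves, against 288, 375 and 233 in GL leaves. Both had R60 libraries at 0 beside others that were read.

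**Figure D2:**
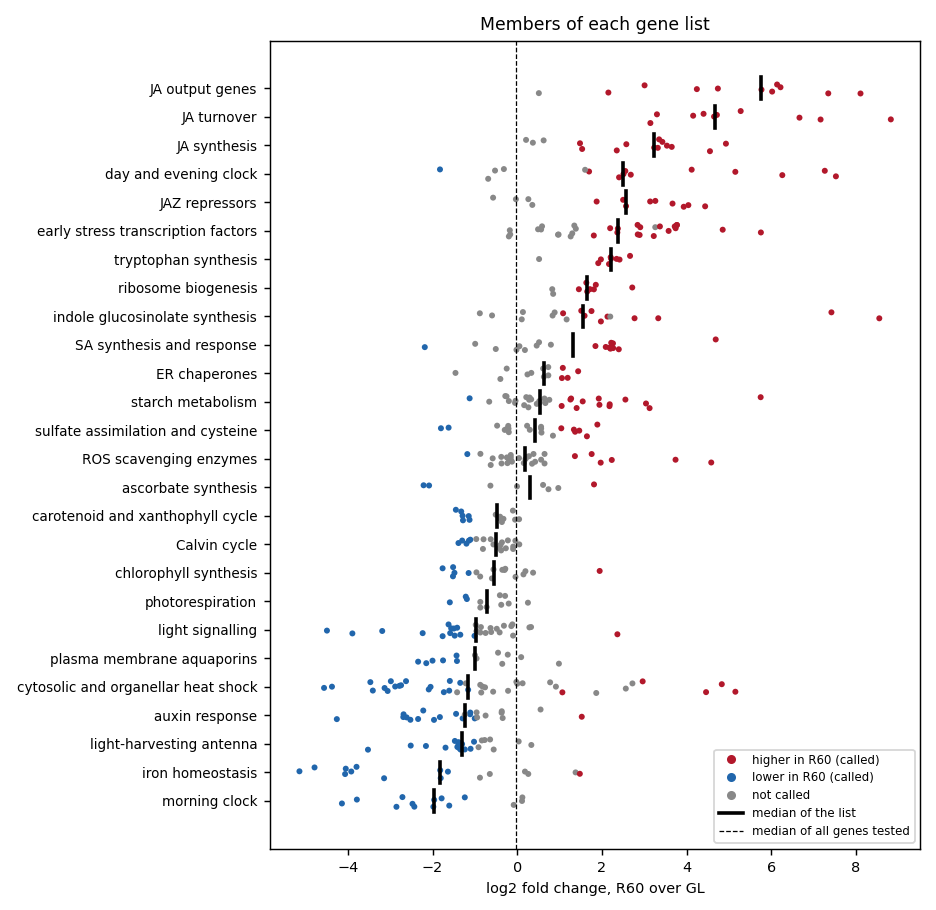
Log2 fold change of R60 over GL for each gene of selected gene lists (red: called higher, blue: called lower, grey: not called), 1 row per list, with a bar at the list median and a dashed line at the median of all genes tested. Not drawn are, among others, the JA signalling, tau glutathione transferase, expansin and XTH, ABA, ethylene, starvation and phenylpropanoid lists. JA output genes lie furthest to the right (median 5.77), morning clock and iron genes lie furthest to the left (medians -1.97 and -1.81).

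Day and evening clock genes were higher in R60 leaves and morning clock genes were lower. Of the 15 day and evening genes tested, 10 were called higher and 1 lower, with a median log2 fold change of 2.51. Of the 14 morning genes, 0 were called higher and 11 lower, with a median of -1.97. The shares of all genes were 10.7% higher and 8.53% lower. PRR5, a pseudo-response regulator that represses CCA1 and LHY, had 366, 1198 and 1302 normalised counts in R60 leaves, against 2.22, 4.99 and 3.77 in GL leaves (log2 fold change 7.52 ± 0.57, limma adjusted p = 1.53e-07). R60 replicate 1 held less than the other R60 libraries, and all were above GL. PRR3, another member of that family, was at 139, 132 and 193 in R60 leaves and at 0 in each GL library, at least 51.6-fold higher when GL is set to the floor of 3 counts per library. GRP7, a clock-driven RNA-binding protein with its 3 evening elements printed above, had 6589.9, 12807 and 14699 normalised counts in R60 leaves, against 117, 145 and 160.2 in GL leaves (log2 fold change 6.26 ± 0.27, limma adjusted p = 1.38e-09). Its paralogue GRP8, named CCR1 in the table, had 4936, 7114 and 7499.8 in R60 leaves, against 1018, 1279.8 and 1096 in GL leaves (2.51 ± 0.15).

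Genes of the evening complex, which represses growth and clock genes at dusk, were called higher too. ELF3 had 384, 474 and 402 normalised counts in R60 leaves, against 33.3, 17.9 and 20.7 in GL leaves (log2 fold change 4.12 ± 0.23, limma adjusted p = 1.07e-08), ELF4 had 57.1, 47.1 and 64.4 in R60 leaves, against 1.11, 0 and 0.942 in GL leaves and LUX, named PCL1 in the table, had 736, 660.4 and 873 in R60 leaves, against 231, 206 and 260.3 in GL leaves (1.70 ± 0.32). TOC1, which represses the morning genes, had 311, 473 and 424 normalised counts in R60 leaves, against 73.2, 62.8 and 65 in GL leaves (log2 fold change 2.55 ± 0.26, limma adjusted p = 2.02e-06). GI, a scaffold of the blue-light F-box protein ZTL, had 1356, 1753 and 1800.0 in R60 leaves, against 305, 283 and 332 in GL leaves (2.40 ± 0.14), and R60 was below the HL60 leaves, which were at 3241, 2381 and 2662 (-0.75 ± 0.14, adjusted p = 0.000643). FKF1, an F-box photoreceptor, had 145, 396 and 504 in R60 leaves, against 45.5, 57.8 and 39.6 in GL leaves (2.68 ± 0.36), again lowest in R60 replicate 1. ZTL itself was at 673, 637 and 632 in R60 leaves, against 1017, 825 and 964 in GL leaves, a difference of less than 2-fold. The day and evening median in single libraries, relative to the GL mean, was 2.13 in R60 replicate 1 against 2.66 and 2.65 in the others. CDF1, a repressor of flowering that FKF1 and GI target, went the other way at 354, 199 and 244 in R60 leaves, against 901, 936 and 915 in GL leaves (log2 fold change -1.83 ± 0.19, limma adjusted p = 2.81e-06).

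Among the morning genes, LHY had 80.7, 52.8 and 44.8 normalised counts in R60 leaves, against 844, 733 and 854 in GL leaves (log2 fold change -3.79 ± 0.16, limma adjusted p = 1.38e-09). CCA1 had 811, 486 and 468 normalised counts in R60 leaves, against 3910.3, 3717 and 3587 in GL leaves (log2 fold change -2.71 ± 0.16, limma adjusted p = 1.88e-08), while HL60 leaves were at 5184, 4956 and 4475. RVE8, an activator of evening genes, had 113, 92.2 and 72.7 in R60 leaves, against 524, 499.5 and 467 in GL leaves (-2.43 ± 0.13), and its relative RVE4, named LCL1 in the table, had 432, 291 and 383 in R60 leaves, against 1520.4, 1416 and 1391 in GL leaves (-1.98 ± 0.12). RVE1 had 2.68, 18.4 and 4.45 in R60 leaves, against 157, 108 and 123 in GL leaves (-4.14 ± 0.59). PRR9, the first pseudo-response regulator of the day, had 553, 533 and 684 in R60 leaves, against 1850.3, 1548 and 1995 in GL leaves (-1.61 ± 0.18), and PRR7, which follows it, was at 2736, 2358 and 2593 in R60 leaves, against 2318, 2228 and 2568 in GL leaves, which overlapped. AT3G12320, a gene the table leaves unnamed, was lower at 238, 288 and 267 in R60 leaves, against 1966, 1810.1 and 1960.5 in GL leaves (log2 fold change -2.85 ± 0.09, limma adjusted p = 8.78e-11). Against HL60 leaves, 9 of the day and evening genes were called higher and 11 of the morning genes lower, where 9.95% and 8.07% of all genes were called in those directions.

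**Figure D3:**
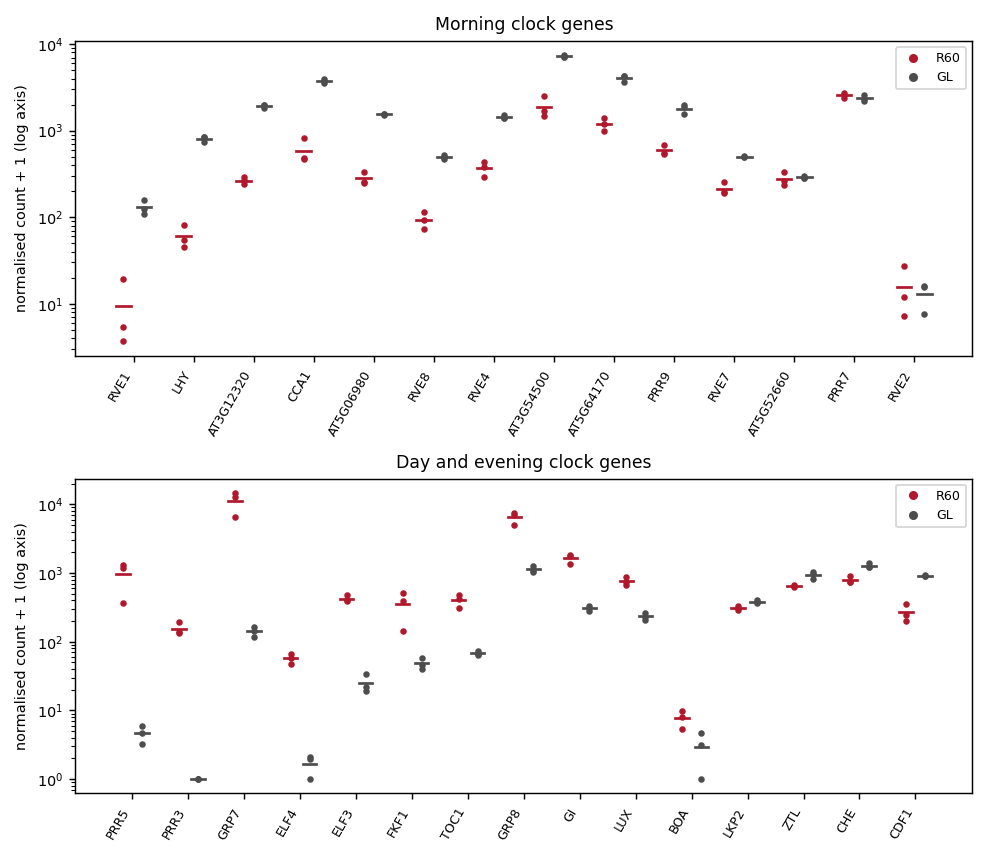
Normalised count + 1 (log axis) of the 14 morning genes (top) and 15 day and evening genes (bottom) by library, with R60 left of GL for each gene, 1 point per library and a bar at each group mean. PRR5 and GRP7 are higher in each R60 library than in each GL library, and LHY and CCA1 are lower.

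Light signalling genes were called lower in R60 leaves more often than higher: 1 of 29 was called higher and 13 lower (median -0.96). The shares of all genes were 10.7% higher and 8.53% lower. HFR1, a bHLH factor that restrains shade responses, had 8.03, 1.6 and 27.8 normalised counts in R60 leaves, against 229, 177 and 189 in GL leaves (log2 fold change -4.49 ± 0.64, limma adjusted p = 4.99e-05). BBX32 and BBX30, B-box proteins that bind other light factors, were both low: BBX32 had 6.24, 7.98 and 6.67 in R60 leaves, against 147, 102 and 106 in GL leaves (-3.89 ± 0.37), and BBX30 had 97.2, 16.8 and 43.3 in R60 leaves, against 384, 374 and 406 in GL leaves (-3.19 ± 0.46). RUP2, a repressor of the UV-B receptor, had 47.3, 32.7 and 45.6 in R60 leaves, against 219.5, 222 and 159 in GL leaves (-2.23 ± 0.18). The only gene called higher was LZF1, a B-box factor also known as BBX22, with 918, 1272 and 1349 normalised counts in R60 leaves, against 208, 232 and 237 in GL leaves (log2 fold change 2.36 ± 0.16, limma adjusted p = 5.38e-08). HY5, the bZIP factor of de-etiolation, falls outside the rule for named genes and was chosen after its values were seen: it had 26.2, 24.3 and 29.3 in R60 leaves, against 73.1, 70.8 and 74.1 in GL leaves, and HL60 leaves were at 873, 909 and 818.

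Starch genes were called higher far more often than lower. Of 33 genes, 13 were called higher and 1 lower (10.7% and 8.53% of all genes), with a median log2 fold change of 0.53. By adjusted p alone 22 were higher and 4 lower (21.4% and 22.1% of all genes). BAM5, a beta-amylase outside the chloroplast, had 20864, 18317 and 13232 normalised counts in R60 leaves, against 383, 270.1 and 313 in GL leaves (log2 fold change 5.75 ± 0.51, limma adjusted p = 6.41e-07). PWD, the phosphoglucan water dikinase that marks starch for breakdown, had 4753, 4061 and 4595 normalised counts in R60 leaves, against 547, 497 and 584 in GL leaves (log2 fold change 3.04 ± 0.12, limma adjusted p = 5.44e-10). ISA3, a debranching enzyme, had 1388, 1840.5 and 1974 normalised counts in R60 leaves, against 204, 182 and 202 in GL leaves (log2 fold change 3.12 ± 0.16, limma adjusted p = 4.49e-09). PHS2, the cytosolic glucan phosphorylase, had 17184, 22001 and 21944 in R60 leaves, against 3158, 3411 and 3806 in GL leaves (2.55 ± 0.18). For each of these enzymes the lowest R60 library was well above the highest GL library. BAM1, a stress-induced beta-amylase of the chloroplast, was the one gene called lower, with 1037, 848 and 783 normalised counts in R60 leaves, against 1975, 1889.7 and 1919 in GL leaves (log2 fold change -1.13 ± 0.14, limma adjusted p = 1.73e-05).

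Genes of starvation and sugar response, 1 list that holds both kinds, were called lower in R60 leaves more often than higher. Of 17 genes 7 were called lower than GL and 2 were called higher (median -0.32), where 8.53% and 10.7% of all genes were. The count called higher was thus near the share of all genes. SEN1, a dark-induced gene, had 0.953, 6.79 and 11.2 normalised counts in R60 leaves, against 99, 81.3 and 105 in GL leaves (log2 fold change -4.07 ± 1.06, limma adjusted p = 0.00633). BAM9, named BMY3 in the table, had 41, 115 and 94.4 in R60 leaves, against 806, 803 and 812 in GL leaves (-3.38 ± 0.28). ASN1, the asparagine synthetase of darkened leaves, had 12.2, 11.6 and 19.7 in R60 leaves, against 132, 172 and 118 in GL leaves (-3.21 ± 0.40). MCCA, of leucine breakdown, had 77.5, 45.7 and 98 in R60 leaves, against 245, 251 and 266 in GL leaves (-1.84 ± 0.22). GPT2, described above, and BT2 were the ones called higher, and BT2 had 2.76, 132 and 89.3 in R60 leaves, against 2.29, 2.06 and 3.89 in GL leaves, so that R60 replicate 1 lay within the GL range. The call on BT2 (log2 fold change 3.28 ± 0.98, limma adjusted p = 0.014) was lost in the fit of only the GL and R60 libraries (adjusted p = 0.0657) and without R60 replicate 2 (2.33, adjusted p = 0.0815) or replicate 3 (2.61, adjusted p = 0.0698). Against HL60 leaves the list ran the other way, with 10 called higher and 1 lower, where 9.95% and 8.07% of all genes were.

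Ribosome biogenesis genes, whose products build ribosomes in the nucleolus, were higher without exception in the group means. Of 9 genes 7 were called higher and none lower (median 1.65), where 10.7% and 8.53% of all genes were. FIB2, a fibrillarin that methylates ribosomal RNA, had 1418, 1807 and 1450.0 normalised counts in R60 leaves, against 203, 348 and 184 in GL leaves (log2 fold change 2.72 ± 0.36, limma adjusted p = 2.53e-05). NUC-L1, a nucleolin, had 13338, 14655 and 14279 normalised counts in R60 leaves, against 4229, 4725 and 3928 in GL leaves (log2 fold change 1.72 ± 0.12, limma adjusted p = 9.32e-08). NAP57, the pseudouridine synthase of box H/ACA particles, had 2595, 2938 and 2474 in R60 leaves, against 697, 823 and 694 in GL leaves (1.85 ± 0.14). NOP56, a core protein of box C/D particles, had 3611, 4392 and 3916 in R60 leaves, against 1219.6, 1445 and 1135 in GL leaves (1.65 ± 0.16). AT2G40360, AT5G15550 and AT5G14520, which the table leaves unnamed, had log2 fold changes of 1.81 ± 0.13, 1.63 ± 0.12 and 1.45 ± 0.12, and FIB1 and PUM23 stayed under 2-fold (0.85 ± 0.12 and 0.83 ± 0.09). In none of the 9 genes did the R60 and GL libraries overlap, where 27.6% of all genes lay apart in that direction.

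The JA output, turnover, synthesis and JAZ lists had the highest medians of the lists, unlike the JA signalling factors given below. GL libraries were uneven for some of them. Relative to the GL mean, the JA output median was -0.04, -0.95 and 1.03 in GL replicates 1, 2 and 3. The JA turnover median was 0.285, -0.745 and 0.391. Of 11 JA output genes 10 were called higher, of 10 turnover genes 10, of 15 synthesis genes 12 and of 13 JAZ repressors 9. None was called lower, where 10.7% and 8.53% of all genes were called higher and lower. At HL60 the list medians over GL were already 2.47, 3.05, 2.03 and 2.31, in the same order. In that order 7, 3, 2 and 0 genes were called higher in R60 than in HL60 leaves, and none lower. The shares of all genes there were 9.95% and 8.07%. VSP1, a vegetative storage protein, had 29406, 32531 and 30254 normalised counts in R60 leaves, against 88.7, 49.2 and 307 in GL leaves (log2 fold change 8.10 ± 1.10, limma adjusted p = 3.46e-05). TAT3, an aminotransferase, had 6253, 7859.5 and 6842 normalised counts in R60 leaves, against 309, 25.9 and 115 in GL leaves (log2 fold change 6.14 ± 0.98, limma adjusted p = 0.000143). RNS1, a ribonuclease of wounded leaves, had 113, 374 and 650.01 normalised counts in R60 leaves, against 5.54, 0.997 and 12.3 in GL leaves (log2 fold change 5.77 ± 1.03, limma adjusted p = 0.000378), so it was lowest in R60 replicate 1. In HL60 leaves RNS1 was at 1.98, 0 and 15.8. NATA1, which acetylates ornithine, had 1458, 1214 and 1772 in R60 leaves, against 64.3, 17 and 140.4 in GL leaves, and HL60 leaves were at 3.96, 62.4 and 44.3. CLH1, a chlorophyllase, had 20175, 10629 and 17691 in R60 leaves, against 3404, 3246 and 3916 in GL leaves (2.15 ± 0.58), and HL60 leaves were at 3497, 26295 and 33463. BSMT1, a methyltransferase of salicylic and benzoic acid, had 1619, 627 and 1938 in R60 leaves, against 5.54, 9.97 and 66 in GL leaves (6.22 ± 1.88), a call lost without GL replicate 1 (5.53, adjusted p = 0.059). CORI3, a cystine lyase, and ARGAH2, an arginase, had log2 fold changes of 4.24 ± 0.43 and 3.01 ± 0.48. The defensin PDF1.2 had few counts, with 11.6, 1.6 and 3.33 in R60 leaves, against 2.22, 2.99 and 2.83 in GL leaves.

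Genes that remove active JA were raised with those that make it. CYP94B3, which hydroxylates JA-Ile, had 457, 668 and 1338 normalised counts in R60 leaves, against 15.5, 3.99 and 3.77 in GL leaves (log2 fold change 6.66 ± 1.45, limma adjusted p = 0.00177). ST2A, which sulfates hydroxy-JA, had 355, 955 and 1282 normalised counts in R60 leaves, against 66.5, 18.9 and 17 in GL leaves (log2 fold change 4.71 ± 0.70, limma adjusted p = 7.85e-05), and HL60 leaves were at 2.97, 15.3 and 24.3. AT2G38240 and JRG21 (AT3G55970) are both annotated as 2-oxoglutarate and iron-dependent oxygenases. AT2G38240 had 1013, 2085 and 1301 in R60 leaves, against 6.65, 3.99 and 23.6 in GL leaves (7.16 ± 1.31), and JRG21 had 948, 816 and 973 in R60 leaves, against 28.7, 8.03 and 47.5 in GL leaves (5.28 ± 1.11). CYP94C1, which oxidises JA-Ile further, had 284, 1211 and 483 in R60 leaves, against 46.6, 16 and 35.8 in GL leaves, and in R15 leaves it had been at 5238, 9137 and 8113 (R60 over R15 log2 fold change -3.73 ± 1.09, adjusted p = 0.0138). DAD1, a lipase that frees linolenic acid, had 27.9, 36.2 and 112 in R60 leaves, against 3.31, 0 and 0 in GL leaves (log2 fold change 4.93 ± 1.42, limma adjusted p = 0.0114). AOC1 and AOC2, allene oxide cyclases with close sequence, had log2 fold changes of 3.53 ± 0.87 and 3.43 ± 0.64, and reads of such copies may be split between them. AOC3, a further copy, had 218, 821 and 1037 in R60 leaves, against 26.6, 17 and 28.3 in GL leaves (4.55 ± 0.73), low in R60 replicate 1, and AOC4 was not called (0.37 ± 0.25). OPR3, the reductase that follows in peroxisomes, had 11813, 7974 and 7772 in R60 leaves, against 769, 578 and 834 in GL leaves (3.65 ± 0.85), and AOS, the allene oxide synthase, had 59129, 56238 and 59429 in R60 leaves, against 9493, 8498 and 11571 in GL leaves (2.58 ± 0.51).

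The JAZ repressors split by member. Against R15 leaves 7 of the 13 were called lower and 0 higher, where 8.05% and 7.11% of all genes were. JAZ5 had 765, 703 and 874 normalised counts in R60 leaves, against 47.7, 28 and 74 in GL leaves (log2 fold change 4.04 ± 0.83, limma adjusted p = 0.00116), and JAZ1 had 1154, 1569.6 and 1574 in R60 leaves, against 109, 54 and 132 in GL leaves (3.93 ± 0.86). JAZ2 and JAZ9, named TIFY10B and TIFY7 in the table, had log2 fold changes of 2.50 ± 0.63 and 2.57 ± 0.43, and JAZ6 had 1.87 ± 0.53. JAZ7 had 149, 191 and 212 in R60 leaves, against 19.96, 2.99 and 34.9 in GL leaves (log2 fold change 3.67 ± 1.39, limma adjusted p = 0.0444), and R15 leaves were at 3083, 5395 and 5141. Dropping the variance trend (adjusted p = 0.073), or leaving out any 1 R60 library, or GL replicate 1 or 2, lost the call on JAZ7, with the highest adjusted p without GL replicate 2 (2.74, adjusted p = 0.176). JAZ3, JAZ4, JAZ11 and JAZ12 were not called: their log2 fold changes were 0.36 ± 0.45, -0.57 ± 0.55, -0.03 ± 0.20 and 0.26 ± 0.24. Of the 11 JA signalling factors, 2 were called higher and none lower (median 0.14), where 10.7% and 8.53% of all genes were. MYC2, the bHLH factor that JAZ proteins repress, had 7905, 5060.0 and 5969 normalised counts in R60 leaves, against 825, 575 and 961 in GL leaves (log2 fold change 3.01 ± 0.45, limma adjusted p = 7.55e-05), while its relatives MYC3 and MYC4 had log2 fold changes of 0.67 and -0.72. COI1, the JA receptor, was at 410.3, 537 and 522 in R60 leaves, against 788, 802 and 832 in GL leaves (log2 fold change -0.73 ± 0.11, limma adjusted p = 9.07e-05), lower by less than 2-fold in R60 leaves.

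Tryptophan synthesis and the indole glucosinolate pathway that draws on it were called higher at most steps. Of 9 tryptophan genes 8 were called higher and none lower (median 2.21), and of 18 indole glucosinolate genes 10 were higher and 0 lower (median 1.55). The shares of all genes were 10.7% higher and 8.53% lower. ASA1, the anthranilate synthase that starts the branch, had 2820.1, 2305 and 2383 normalised counts in R60 leaves, against 576, 548 and 499 in GL leaves (log2 fold change 2.21 ± 0.35, limma adjusted p = 0.000142). TRP1, the next enzyme, had 3785, 3560.4 and 3616 in R60 leaves, against 912, 943 and 1060.2 in GL leaves (1.91 ± 0.14). TSA1, the alpha subunit of tryptophan synthase, had 2782, 3813 and 3180.1 in R60 leaves, against 638, 566 and 614 in GL leaves (2.41 ± 0.13), and TSB1, the beta subunit, had 8397, 7542 and 7955 in R60 leaves, against 1583, 1527 and 1588 in GL leaves (2.34 ± 0.11). In each of these genes the lowest R60 library was over 2 times the highest GL library. ASB1, TSB2 and PAI1 had log2 fold changes of 2.22 ± 0.28, 2.66 ± 0.29 and 1.97 ± 0.21. ASA2, another anthranilate synthase, stayed under 2-fold (0.51 ± 0.09). CYP79B2 and CYP79B3 turn tryptophan into its oxime: CYP79B2 had 3854, 2993 and 2933 normalised counts in R60 leaves, against 335, 250.4 and 394 in GL leaves (log2 fold change 3.33 ± 0.53, limma adjusted p = 0.000138), and CYP79B3 had 5215, 4245 and 4695 in R60 leaves, against 775, 545 and 775 in GL leaves (2.77 ± 0.56). CYP81F4, which hydroxylates the indole ring, was at 180.2, 198 and 138 in R60 leaves and at 0 in all GL libraries, at least 57.3-fold higher against the floor of 3 counts per library. In HL60 leaves CYP81F4 was at 0, 4.38 and 24.3.

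Some sulfur genes that feed glucosinolates were called higher and few were called lower. A sulfate group closes glucosinolate synthesis, and the cell takes it from PAPS, while the reducing branch makes cysteine. Of 20 sulfate and cysteine genes, 6 were called higher and 2 lower, where 10.7% and 8.53% of all genes were. The count called lower was thus near the share of all genes. The kinases that make the sulfate donor PAPS were higher: AKN2 had 4665, 4000.4 and 4376 normalised counts in R60 leaves, against 1422, 1234 and 1519 in GL leaves (log2 fold change 1.64 ± 0.22, limma adjusted p = 3.18e-05) and APK had 5399, 3881 and 4553 in R60 leaves, against 1594, 1588 and 1794 in GL leaves (1.46 ± 0.22). OASC, the mitochondrial cysteine synthase isoform, had 1449, 1608 and 1455 in R60 leaves, against 397, 433 and 384 in GL leaves (1.89 ± 0.25). The reductase of the main assimilation branch was lower: APR2, which the table shows under a date-like name for AT1G62180, had 3096, 2814 and 2915 normalised counts in R60 leaves, against 9376, 10339 and 11125 in GL leaves (log2 fold change -1.80 ± 0.10, limma adjusted p = 6.74e-09). AT1G55920, the other gene called lower, had 387, 299 and 433 in R60 leaves, against 1085, 1088 and 1243 in GL leaves (-1.62 ± 0.36). Of 21 aliphatic glucosinolate genes 3 were called higher and none lower, beside the same shares of all genes. MAM1, which lengthens methionine side chains, had 5644, 4342 and 5482 in R60 leaves, against 2552, 2092 and 2754 in GL leaves (1.06 ± 0.22), and MYB76 had 80.02, 61.1 and 62.9 in R60 leaves, against 37.6, 20.5 and 26.2 in GL leaves (1.28 ± 0.32). MYB28, an activator of that branch, stayed under 2-fold (-0.58 ± 0.15).

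**Figure D4:**
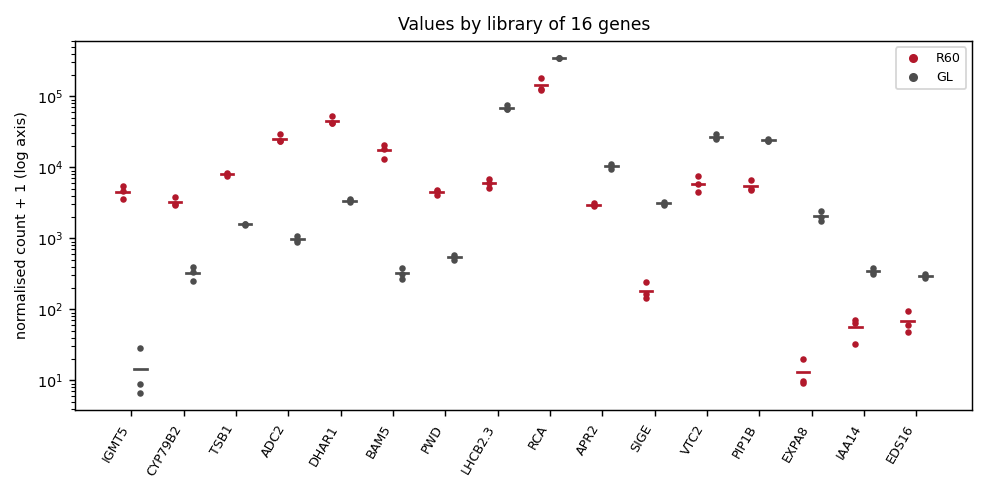
Normalised count + 1 (log axis) of 16 genes by library, R60 left of GL for each gene, with 1 point per library and a bar at the group mean. The R60 and GL points of each gene lie apart, from IGMT5 to PWD with R60 above and from LHCB2.3 to EDS16 with R60 below.

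Early stress transcription factors and calcium sensors were higher than GL, and lower than at the start of recovery. Of 30 genes 17 were called higher than GL and none lower (median 2.37), where 10.7% and 8.53% of all genes were. Against R15 leaves 2 were called higher and 15 lower, where 7.11% and 8.05% of all genes were. R60 replicate 1 was the lowest for this list: the median over its genes, relative to the GL mean, was 1.20 in replicate 1, 2.92 in replicate 2 and 3.16 in replicate 3, and without replicate 1 the list's median was 2.98. RAP2.6, an ERF factor, had 111, 346 and 506 normalised counts in R60 leaves, against 7.76, 1.99 and 3.77 in GL leaves (log2 fold change 5.75 ± 1.32, limma adjusted p = 0.0026). CML38, a calcium sensor, had 119.7, 281 and 303 in R60 leaves, against 3.18, 5.02 and 16.1 in GL leaves, and R15 leaves were at 549.6, 1408 and 1906. DREB1A, the cold factor also called CBF3, had 223, 611 and 997 normalised counts in R60 leaves, against 39.9, 33.9 and 36.8 in GL leaves (log2 fold change 3.77 ± 0.44, limma adjusted p = 8.09e-06). R15 leaves were at 90.2, 76.7 and 35.5, so DREB1A was also higher in R60 than in R15 leaves (log2 fold change 3.02 ± 0.44, adjusted p = 9.07e-05). RHL41, a zinc finger factor known as ZAT12, had 27.7, 119 and 147 in R60 leaves, against 7.76, 4.99 and 2.83 in GL leaves (3.77 ± 0.76). STZ (ZAT10), chosen after its values were seen, showed the spread of R60 leaves most plainly at 66.9, 554 and 417 in R60 leaves, against 19.96, 13 and 22.6 in GL leaves.

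Salicylic acid (SA), a hormone of pathogen defence, had several response genes called higher and its synthase gene lower. Of 18 genes 9 were called higher and 1 lower (median 1.32), where 10.7% and 8.53% of all genes were. GRX480, a glutaredoxin of the SA response, had 143, 74.3 and 221 normalised counts in R60 leaves, against 8.87, 1.99 and 3.77 in GL leaves (log2 fold change 4.69 ± 0.70, limma adjusted p = 8.4e-05). EDS5, the SA exporter of chloroplasts, had 464, 506 and 443 normalised counts in R60 leaves, against 92, 86.8 and 116 in GL leaves (log2 fold change 2.26 ± 0.26, limma adjusted p = 6.25e-06), and BGL2, the glucanase PR2, had 263, 286 and 396 in R60 leaves, against 152, 32.9 and 38.7 in GL leaves (2.40 ± 0.43). The gene called lower was EDS16, the isochorismate synthase that starts SA synthesis, with 93.7, 47.1 and 58.9 normalised counts in R60 leaves, against 276, 294 and 312 in GL leaves (log2 fold change -2.18 ± 0.24, limma adjusted p = 4.05e-06). PBS3, which acts after it, stayed just under 2-fold, with 69, 60.8 and 106 in R60 leaves, against 168, 141 and 152 in GL leaves (-0.99 ± 0.20). EDS16 was at 117, 82.1 and 78.1 in HL60 leaves, and its difference between R60 and HL60 leaves did not pass (adjusted p = 0.0981).

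The heat shock genes that were called formed 2 sets, a few small heat shock proteins above GL and a larger set, with HSP70, HSP90.1 and HSFA2, below it. Of 39 genes 5 were called higher than GL and 18 lower (median -1.16), where 10.7% and 8.53% of all genes were. The count called higher was thus near the share of all genes. Against HL60, 38 were called lower and 0 higher, where 8.07% and 9.95% of all genes were. HSP17.4, also called HSP17.4A, had 2411, 722 and 250.01 normalised counts in R60 leaves, against 27.7, 30.9 and 19.8 in GL leaves (log2 fold change 4.83 ± 0.62, limma adjusted p = 2.11e-05), and HL60 leaves were at 10398, 28011 and 13235. AT2G29500, an HSP20-like chaperone gene, had 3324, 1346 and 521 normalised counts in R60 leaves, against 42.1, 31.9 and 35.8 in GL leaves (log2 fold change 5.15 ± 0.55, limma adjusted p = 3.83e-06). AT1G53540 (HSP17.6C) had 1615, 295 and 106 in R60 leaves, against 17.7, 15 and 15.1 in GL leaves (4.46 ± 0.80), and HSP17.6II had 771, 361 and 137 in R60 leaves, against 51, 35.9 and 41.5 in GL leaves (2.96 ± 0.52). In all of these R60 replicate 1 was the highest and replicate 3 the lowest, and each R60 library was above each GL library.

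Below GL were a heat shock factor, a coactivator and chaperones of larger size. HSFA2, the heat-induced heat shock factor, had 3.72, 2.5 and 9.27 normalised counts in R60 leaves, against 161, 122 and 112 in GL leaves (log2 fold change -4.56 ± 0.46, limma adjusted p = 2.16e-06), and HL60 leaves were at 794, 2615 and 1592. MBF1C, a coactivator of heat tolerance, had 26.9, 18.3 and 26.9 normalised counts in R60 leaves, against 559, 511 and 469 in GL leaves (log2 fold change -4.38 ± 0.40, limma adjusted p = 8.05e-07). HSP70 (AT3G12580), a cytosolic chaperone, had 478, 395 and 559 normalised counts in R60 leaves, against 5912, 4961 and 4923 in GL leaves (log2 fold change -3.47 ± 0.21, limma adjusted p = 2.29e-08), and HL60 leaves were at 54441, 95023 and 53676. HSP90.1 had 118, 91.8 and 133 in R60 leaves, against 887, 703 and 773 in GL leaves (-2.78 ± 0.35). AT5G37670, an HSP20-like gene, was also below GL at 4.46, 0.798 and 5.56 in R60 leaves, against 32.2, 44.9 and 49.9 in GL leaves. The R60 and GL libraries of these genes did not overlap, as was so for 28.8% of all genes in that direction. HSP23.6-MITO, outside the rule and chosen after its values were seen, overlapped with GL, with 40.1, 7.98 and 4.44 in R60 leaves, against 11.1, 3.99 and 5.65 in GL leaves, and HL60 leaves were at 2537, 13358 and 4935. AT1G52560 (HSP26.5) was near 0 in both, with 0, 0 and 0 in R60 leaves, against 1.12, 2.02 and 0.953 in GL leaves.

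**Figure D5:**
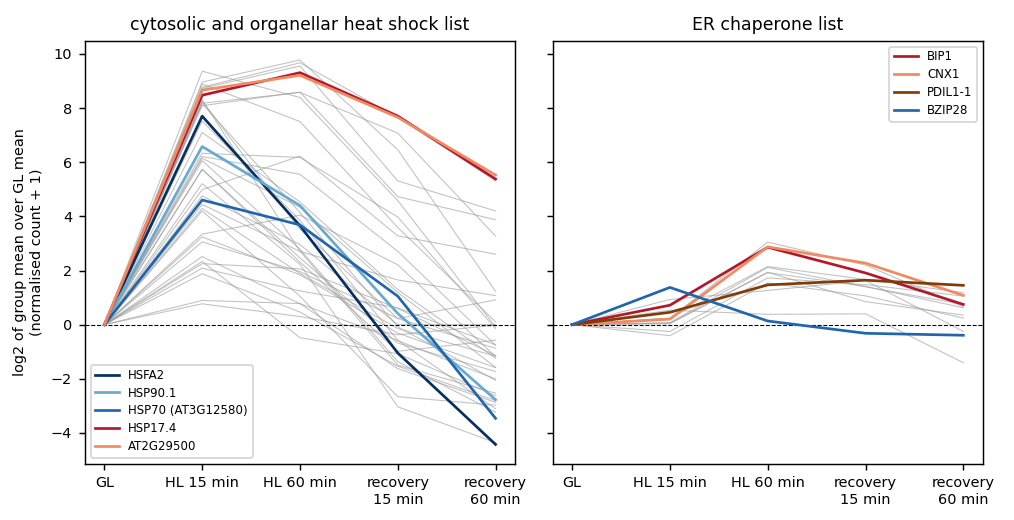
Log2 of the group mean over the GL mean (normalised count + 1) in GL, after 15 and 60 min of HL and after 15 and 60 min of recovery, 1 line per gene, for the 39 heat shock genes (left) and the 13 ER chaperones (right), with named genes in colour. At 60 min of recovery HSP17.4 and AT2G29500 lie above the dashed GL line, and HSFA2, HSP70 and HSP90.1 lie below it.

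Chaperones of the endoplasmic reticulum (ER), where secreted proteins fold, were in part above GL. Of 13 genes 4 were called higher and none lower (median 0.63), where 10.7% and 8.53% of all genes were. Against HL60 8 were called lower, where 8.07% of all genes were. PDIL1-1, a protein disulfide isomerase, had 2392, 3423 and 2910.5 normalised counts in R60 leaves, against 1050.1, 1038 and 1098 in GL leaves (log2 fold change 1.44 ± 0.12, limma adjusted p = 3.97e-07). CNX1, calnexin, had 5256, 5922 and 6720.1 in R60 leaves, against 2653, 3014 and 2793 in GL leaves (1.08 ± 0.17), and HL60 leaves were at 19019, 25065 and 17981. BZIP28, a membrane-bound sensor of ER stress, stayed under 2-fold (-0.40 ± 0.10). The list's median in single libraries, relative to the GL mean, was 0.35 in R60 replicate 1, against 0.81 and 0.91 in the others.

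Light-harvesting antenna genes were lower in R60 leaves. Of 21 genes 14 were called lower and none higher (median -1.30), where 8.53% and 10.7% of all genes were. By adjusted p alone 19 were lower (22.1% of all genes). LHCB2.3 had 6825, 5115 and 6076 normalised counts in R60 leaves, against 66250, 65500 and 74724 in GL leaves (log2 fold change -3.53 ± 0.20, limma adjusted p = 9.55e-09). LHB1B1, an LHCB1 gene, had 12597, 15461 and 14378 normalised counts in R60 leaves, against 72207, 79155 and 91700 in GL leaves (log2 fold change -2.52 ± 0.20, limma adjusted p = 2.61e-07). LHCB4.2 (CP29) had 21295, 16551 and 18476 in R60 leaves, against 83056, 80911 and 85917 in GL leaves (-2.16 ± 0.13), and LHCB2.2 had 40301, 34956 and 37349 in R60 leaves, against 120330, 118640 and 125010 in GL leaves (-1.69 ± 0.13). The LHCB1 and LHCB2 genes are close copies among which reads may be split. The size of this difference depended on scaling: after quantile normalisation the antenna median was -0.47, the Calvin cycle median -0.15 (main value -0.49) and the photorespiration median -0.36 (main value -0.72). The mesophyll markers, most of them photosynthesis genes themselves, had a lower sum in R60 leaves as given above, and their part in these values was not tested.

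Fewer genes of the Calvin cycle and of photorespiration were called. Of 20 Calvin cycle genes 5 were called lower, of 11 photorespiration genes 3, and none was called higher. The shares of all genes were 8.53% lower and 10.7% higher. The Calvin cycle median relative to the GL mean was -0.27 in R60 replicate 1, against -0.58 and -0.64 in the others. GAPA, a subunit of the chloroplast glyceraldehyde phosphate dehydrogenase, had 30590, 24138 and 26102 normalised counts in R60 leaves, against 70787, 69727 and 70142 in GL leaves (log2 fold change -1.39 ± 0.13, limma adjusted p = 1.03e-06). RCA, Rubisco activase, had 180590, 126410 and 121410 normalised counts in R60 leaves, against 351590, 344110 and 342670 in GL leaves (log2 fold change -1.30 ± 0.23, limma adjusted p = 0.000292), with R60 replicate 1 the nearest to GL. HPR, the peroxisomal hydroxypyruvate reductase, had 13820, 9352 and 10592 in R60 leaves, against 33627, 32997 and 33867 in GL leaves (-1.59 ± 0.14). SIGE, the plastid sigma factor SIG5, had 237, 143 and 165 normalised counts in R60 leaves, against 3083, 2966 and 3253 in GL leaves (log2 fold change -4.12 ± 0.23, limma adjusted p = 1.11e-08), and HL60 leaves were at 9806, 6294 and 5846. ELIP2, an early light-induced protein, had 16.9, 37.5 and 37.8 in R60 leaves, against 5.54, 5.98 and 6.6 in GL leaves (2.09 ± 0.36), and its paralogue ELIP1 was at 32.1, 46.3 and 54.4 in R60 leaves, against 52.1, 55.8 and 32 in GL leaves, which overlapped.

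Chlorophyll synthesis showed 1 gene called higher and 5 lower of 17 (median -0.56), where 10.7% and 8.53% of all genes were called. Its median relative to the GL mean was -0.28 in R60 replicate 1, against -0.64 and -0.66 in the others, and that of the tocopherol genes was -0.26 in R60 replicate 1, against -0.66 and -0.64 in the others. PORB, a protochlorophyllide reductase, had 13697, 16425 and 15859 normalised counts in R60 leaves, against 3814, 3840.4 and 4260.0 in GL leaves (log2 fold change 1.95 ± 0.15, limma adjusted p = 1.92e-07). CHLM, a magnesium protoporphyrin methyltransferase, had 3047, 2079 and 2661 normalised counts in R60 leaves, against 8659, 8698 and 8762 in GL leaves (log2 fold change -1.76 ± 0.14, limma adjusted p = 2.97e-07). HEMA1, which makes glutamyl-tRNA reductase at the entry of the pathway, had 9478, 9043 and 9464 in R60 leaves, against 26560, 23541 and 30315 in GL leaves (-1.52 ± 0.11). Of 14 carotenoid genes 6 were called lower and none higher, beside the same shares of all genes. ABA1, the zeaxanthin epoxidase, had 7128, 5061 and 5331 normalised counts in R60 leaves, against 16024, 15234 and 16070 in GL leaves (log2 fold change -1.45 ± 0.14, limma adjusted p = 1.13e-06), and PSY, phytoene synthase, had 4010.5, 4099 and 4101 in R60 leaves, against 9877, 9733 and 10296 in GL leaves (-1.29 ± 0.10). Among 8 tocopherol genes, VTE2 (HPT1 in the table), the prenyltransferase, was called higher with 819, 856 and 1044 in R60 leaves, against 232, 228 and 192 in GL leaves (2.05 ± 0.19), while 3 others were called lower, among them HPD (PDS1) with 672, 442 and 506 in R60 leaves, against 1776, 1715 and 1619 in GL leaves (-1.68 ± 0.14).

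Antioxidant enzymes were mixed. Of 30 genes of reactive oxygen removal 6 were called higher and 1 lower (median 0.17), where 10.7% and 8.53% of all genes were. MDHAR (AT3G09940), a monodehydroascorbate reductase, had 182, 43.2 and 285 in R60 leaves, against 15.8, 1.04 and 3.93 in GL leaves (4.58 ± 1.01). DHAR1, a dehydroascorbate reductase, had 52092, 42245 and 42069 normalised counts in R60 leaves, against 3439, 3221 and 3522 in GL leaves (log2 fold change 3.74 ± 0.39, limma adjusted p = 2.89e-06). GPX7, a plastid glutathione peroxidase-like gene, had 1529, 1150.3 and 1426 normalised counts in R60 leaves, against 304, 255 and 309 in GL leaves (log2 fold change 2.23 ± 0.11, limma adjusted p = 4.22e-09), while GPX1, another plastid member, was called lower with 8649, 5852 and 7469 normalised counts in R60 leaves, against 16347, 16019 and 16787 in GL leaves (log2 fold change -1.18 ± 0.14, limma adjusted p = 1.14e-05). CAT2, the main leaf catalase of photorespiration, was at 38780, 28089 and 24792 in R60 leaves, against 46790, 42382 and 50173 in GL leaves (-0.63 ± 0.18), a difference of less than 2-fold, and HL60 leaves were at 100770, 79237 and 78114. After quantile normalisation, or without R60 replicate 3, CAT2 did not pass adjusted p (-0.10 and -0.49). Of 8 ascorbate synthesis genes, VTC2, the committed enzyme, had 7424, 4449 and 5725 normalised counts in R60 leaves, against 25671, 25273 and 29013 in GL leaves (log2 fold change -2.21 ± 0.22, limma adjusted p = 1.94e-06), VTC4 had 388, 386 and 404 in R60 leaves, against 1644, 1561 and 1801 in GL leaves (-2.08 ± 0.12), and the mannose phosphate isomerase PMI1 (MEE31 in the table) was called higher with 3636, 3469 and 4317 in R60 leaves, against 1023, 1051 and 1167 in GL leaves (1.81 ± 0.30).

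Auxin, which drives cell expansion, is read here through a list of response and synthesis genes, and most of those called were lower. Of 23 auxin genes 1 was called higher and 14 lower (median -1.24), where 10.7% and 8.53% of all genes were. IAA29, an Aux/IAA repressor, had 2.01, 8.55 and 54.6 normalised counts in R60 leaves, against 277, 236 and 170.1 in GL leaves (log2 fold change -4.26 ± 0.93, limma adjusted p = 0.00183). R60 replicate 3 was the highest of the R60 libraries and still below GL. IAA14 had 68.7, 31.5 and 63.7 in R60 leaves, against 329, 377 and 316 in GL leaves (-2.69 ± 0.29). YUC8 and YUC9 are flavin monooxygenases of auxin synthesis. YUC8 had 0.892, 6.39 and 12.2 in R60 leaves, against 51, 25.9 and 29.2 in GL leaves (log2 fold change -2.61 ± 0.74, limma adjusted p = 0.0103), and YUC9 had 2.68, 12.8 and 6.67 in R60 leaves, against 62.1, 35.9 and 43.4 in GL leaves (log2 fold change -2.68 ± 0.85, limma adjusted p = 0.0189). Without R60 replicate 1 neither passed (-1.82, adjusted p = 0.0534 for YUC8, and -2.19, adjusted p = 0.0782 for YUC9), nor did YUC9 without GL replicate 1 (-2.47, adjusted p = 0.0641). GH3.3, which conjugates auxin, was the gene called higher, with 15.2, 39.1 and 34.4 in R60 leaves, against 8.87, 6.98 and 11.3 in GL leaves (log2 fold change 1.52 ± 0.55, limma adjusted p = 0.0354). That call was lost when any library other than R60 replicate 1 was left out, with a log2 fold change of 1.27 and an adjusted p of 0.127 without R60 replicate 2, and after quantile normalisation (1.34, adjusted p = 0.0572).

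Of 30 expansin and XTH genes 2 were called higher and 10 lower, where 10.7% and 8.53% of all genes were. EXPA11 had 137, 49.9 and 119 normalised counts in R60 leaves, against 805, 953 and 945 in GL leaves (log2 fold change -3.25 ± 0.35, limma adjusted p = 4.05e-06), and EXPA1 had 809, 685 and 519.7 in R60 leaves, against 4201, 4189 and 3684 in GL leaves (-2.60 ± 0.22). XTH24, a xyloglucan endotransglucosylase, was called higher, with 6295, 3624 and 3957 normalised counts in R60 leaves, against 609, 583 and 1085 in GL leaves (log2 fold change 2.62 ± 0.44, limma adjusted p = 0.000229). Of 13 plasma membrane aquaporins 0 were called higher and 6 lower (median -0.999), beside the same shares of all genes. PIP1C had 968, 828 and 839 normalised counts in R60 leaves, against 4357, 4595 and 4380.0 in GL leaves (log2 fold change -2.34 ± 0.11, limma adjusted p = 2.22e-09), PIP1B had 6633, 4962 and 4739 in R60 leaves, against 23666, 24904 and 23093 in GL leaves (-2.15 ± 0.16) and PIP1A had 2403, 1833 and 1726 in R60 leaves, against 7897, 7636 and 8103 in GL leaves (-2.001 ± 0.12). PIP1B had been at 38724, 36067 and 27615 in HL60 leaves. Of 17 cuticular wax genes 3 were called lower, where 8.53% of all genes were. They were led by CER4, the alcohol-forming reductase, with 4.46, 4.79 and 23.3 in R60 leaves, against 157, 158 and 187 in GL leaves (-4.19 ± 0.53). The part of the epidermis markers, whose sum was lower in R60 leaves as given above, was not tested.

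Iron deficiency genes were lower in R60 leaves, but GL replicate 2 was high for them. Of 16 iron genes 1 was called higher and 10 lower (median -1.81, and -1.47 without GL replicate 2). The shares of all genes were 10.7% higher and 8.53% lower. bHLH38, a bHLH factor of iron uptake, was at 0 in each R60 library and at 14.4, 85.8 and 32 in GL leaves, at least 14.7-fold lower when R60 is set to the floor of 3 counts per library. Its relative BHLH100 was at 0 in each R60 library and at 5.97, 108 and 26.8 in GL leaves. AT2G30766, an uncharacterised gene, had 44.3, 21.5 and 13.6 normalised counts in R60 leaves, against 229, 1094 and 267 in GL leaves (log2 fold change -4.05 ± 0.55, limma adjusted p = 3.41e-05). FER3, a ferritin, was called higher with 1030.3, 1361 and 1228 normalised counts in R60 leaves, against 442, 449 and 401 in GL leaves (log2 fold change 1.48 ± 0.34, limma adjusted p = 0.00295), whereas FER1 and FER4 were not called (0.26 ± 0.34 and 0.18 ± 0.40).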

How the data were processed

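RNA from leaf tissue of 15 samples (5 conditions of light, 3 replicates each) was sequenced. The deposited values are a signal unit, normalised counts: per the study's methods and the labels, the authors quantified reads with Salmon v0.12 against the cDNA of TAIR10, summed transcripts to genes and scaled between libraries with DESeq2. In genes with 1 transcript 100% of low values were whole multiples of the value of 1 read (tolerance 0.01 reads), but over all genes only between 59.9% and 63.3% were. The values were therefore treated as normalised and no count test was run. From the value of 1 read, R60 libraries held an estimated 14400000 to 20200000 reads and GL libraries 17300000 to 20500000. Normalised counts summed to between 16000000 and 17400000 in R60 libraries and between 19000000 and 19300000 in GL libraries. The study calls the replicates biological.

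Genes with a sum under 10 over the 15 libraries were left out. Limma 3.58.1 (R 4.3.3) was fitted to log2(value + 1) with a trend in the variance, 1 coefficient per condition over all 15 libraries and Benjamini-Hochberg adjustment over all 20512 genes. The study's own test, a Wald test on counts, could not be run on these values. A gene was called at an adjusted p under 0.05 and at least 2-fold. The SE of a log2 fold change came from the spread between replicate libraries pooled over all 5 conditions, moderated by limma. It is therefore not the spread of the R60 and GL libraries alone, and a gene with uneven HL60 libraries has a wider SE. A group with every library at or under 3 normalised counts was set to a floor of 3 per library, and the ratio is then a bound. The bounds printed are of genes at 0 in every library of 1 group. GL3, whose GL libraries were under the floor, is given with a log2 fold change, which is not a bound. That floor covers counting error only. Alternatives were pseudocounts of 0.5 and 5, upper quartile and quantile scaling, no filter, a mean of at least 10, only the GL and R60 libraries, no variance trend, a replicate block, no fold minimum, a test against 1.5-fold, and leaving out each replicate. Leaving out HL60 or R15 replicates was added after seeing the data.

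The members and the gene lists were chosen with earlier results of these data known. Named genes are the 10 largest rises and 10 largest falls with a mean of 100 or more, up to 4 in each direction per list, any member of lists of 11 or fewer genes, clock genes and the study's own markers. Promoters were cut from the RefSeq TAIR10.1 genome by locus. The model was tested on simulated data. Tables and plots were made with Python 3.11.15, pandas 2.3.3, numpy 2.4.6 and matplotlib 3.10.9.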

Additional observations from a re-analysis of the deposited data

How the results depend on the processing

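Counts of called genes changed by more than 1.5 times only with the fold rule. With no fold minimum there were 8917 genes (4386 higher, 4531 lower) for R60 against GL, 9093 (4710 higher, 4383 lower) against HL60 and 8414 (4275 higher, 4139 lower) against R15. A test against 1.5-fold gave 1268 genes higher than HL60, and 1880 genes against R15, of which 763 were higher. Leaving out 1 GL or R60 library at a time gave between 3539 and 4048 calls for R60 against GL. With the replicate block there were 3927 (2205 higher, 1722 lower). Deviations of same-numbered R60 and GL libraries correlated at -0.02, 0.077 and 0.011 across genes. Not every R60 library correlated best with its own number in GL, HL60 or R15. With 3 libraries per group this check cannot exclude a pairing. With the libraries of 15 min of HL each R60 library did correlate best with its own number, weakly (0.133, 0.0597 and 0.0893). The block lost the GH3.3 call (adjusted p = 0.0505). The fit with only the GL and R60 libraries gave 3991 calls and cannot give values against HL60 or R15. For most results that moved the cause was not tested.

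Of 3190 values of the named genes under alternatives, 3149 kept direction and side of the threshold. Signs turned, with no call in either case, for ELIP1 (-0.31 to 0.14 when 1 library at a time was left out), JAZ11 (-0.14 to 0.035), HSP23.6-MITO (-0.077 to 1.38) and PDF1.2 (-0.13 to 1.01). Quantile normalisation moved the medians of the antenna (-0.47), Calvin cycle (-0.15), photorespiration (-0.36), indole glucosinolate (1.60) and light signalling (-1.02) lists, and the median of all genes to -0.07. A pseudocount of 5 moved JA output to 4.91, heat shock to -0.87, SA to 0.83, phenylpropanoids to 0.42 and tau glutathione transferases to 0.0039, past 0, and a pseudocount of 0.5 moved phenylpropanoids to 0.65. A mean of 10 or more, which tests fewer genes, gave 2.85 for JAZ, 0.56 for sulfate, 0.27 for chlorophyll breakdown, -0.59 for starvation, 0.79 for SA and -0.25 for ABA, which turned sign. With no filter, medians were -0.0064 for tau glutathione transferases, -0.92 for light signalling and 0.95 for SA.

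Leaving out 1 library at a time, list medians ranged over 3.03 to 3.36 for JA synthesis, 4.39 to 5.05 for JA turnover, 5.03 to 6.25 for JA output, 1.33 to 1.59 for indole glucosinolates, -0.085 to 0.15 for tau glutathione transferases, 0.41 to 0.73 for phenylpropanoids, -1.21 to -0.94 for heat shock, -0.47 to -0.38 for early light-induced and photoprotection genes, 0.53 to 0.64 for starch, 1.08 to 1.51 for SA, -0.19 to 0.47 for ABA, -0.28 to -0.14 for ethylene and 1.58 to 1.75 for ribosome biogenesis. The ABA median was below 0 without R60 replicate 2 (-0.17) or 3 (-0.19), and the tau glutathione transferase median was above 0 without R60 replicate 1 (0.01) or 2 (0.15). Depth limits genes with few counts: a gene at 0 in a library may hold up to 3 normalised counts.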

Other observations

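Of 30 phenylpropanoid, flavonol and anthocyanin genes 12 were called higher and 4 lower (median 0.53), where 10.7% and 8.53% of all genes were. PAP1, a MYB activator of anthocyanin synthesis, had 815, 722 and 810.02 normalised counts in R60 leaves, against 84.3, 45.9 and 65 in GL leaves (log2 fold change 3.61 ± 0.41, limma adjusted p = 7.21e-06), and its bHLH partner GL3 had 54.5, 54.8 and 65.7 in R60 leaves, against 2.33, 1.05 and 2.97 in GL leaves (4.30 ± 0.67). UF3GT, which adds xylose to anthocyanins, was at 21.4, 11.2 and 32.2 in R60 leaves and at 0 in each GL library. TT19, the glutathione transferase-like carrier of anthocyanins, had 25.9, 9.58 and 21.1 in R60 leaves, against 1.11, 1.99 and 0 in GL leaves. PAL4, an entry enzyme of the pathway, was called lower with 40.1, 37.5 and 35.6 normalised counts in R60 leaves, against 129.7, 134 and 126 in GL leaves (log2 fold change -1.76 ± 0.30, limma adjusted p = 0.000286), and 4CL1 had 2504, 1443 and 1709 in R60 leaves, against 3759, 3772 and 3718 in GL leaves (-1.03 ± 0.19).

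Polyamine and proline genes changed in opposite directions within the pathway. Of 17 arginine, polyamine and proline genes 4 were called higher and 5 lower, where 10.7% and 8.53% of all genes were. ADC2, the stress form of arginine decarboxylase, had 23146, 29423 and 23602 normalised counts in R60 leaves, against 889.7, 1086 and 949.6 in GL leaves (log2 fold change 4.70 ± 0.45, limma adjusted p = 1.29e-06), while its paralogue ADC1 had 1489, 1764 and 1441 in R60 leaves, against 3896, 4077 and 4549.9 in GL leaves (-1.42 ± 0.10). SPDS1, a spermidine synthase, had 2114, 1886 and 2069.7 in R60 leaves, against 678, 629.8 and 666 in GL leaves (1.62 ± 0.10). AT5G15950, of the adenosylmethionine decarboxylase family, had 333, 232 and 235 normalised counts in R60 leaves, against 3873, 3784 and 4446 in GL leaves (log2 fold change -3.93 ± 0.14, limma adjusted p = 1.75e-10), and SAMDC of that family had 7741, 14103 and 12241 in R60 leaves, against 25754, 24550 and 30271 in GL leaves (-1.28 ± 0.20). P5CS1, the committed enzyme of proline synthesis, had 1552, 1562 and 1532 in R60 leaves, against 8341, 7554 and 8836 in GL leaves (-2.41 ± 0.19), and AT5G38710, a proline dehydrogenase family gene, had 648, 347 and 447 in R60 leaves, against 79.6, 61.8 and 117 in GL leaves (2.47 ± 0.81). The call on AT5G38710 was lost without GL replicate 1 (adjusted p = 0.058) or 2 (0.0745), or R60 replicate 1 (0.0725) or 3 (0.0513).

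Of 29 abscisic acid (ABA) genes 4 were called higher and 2 lower, where 10.7% and 8.53% of all genes were. The list's median relative to the GL mean was -0.35 in R60 replicate 1, against 0.00 and 0.27 in the others. COR15A, a chloroplast protein of freezing tolerance, had 34959, 49153 and 46119 normalised counts in R60 leaves, against 4369.8, 3448 and 3991 in GL leaves (log2 fold change 3.45 ± 0.16, limma adjusted p = 2.22e-09), and LTI78 (RD29A) had 5062, 15358 and 16466 in R60 leaves, against 2111, 1648 and 1672 in GL leaves (2.59 ± 0.35), lowest in R60 replicate 1. KIN1, a cold-induced gene, had 268, 1160.2 and 710.02 in R60 leaves, against 27.7, 18.9 and 14.1 in GL leaves (4.88 ± 0.51). HAB1, a phosphatase that silences ABA signalling, was called lower with 261, 277 and 375 normalised counts in R60 leaves, against 1184, 995 and 1065 in GL leaves (log2 fold change -1.84 ± 0.14, limma adjusted p = 1.36e-07), and the receptor PYL7 had 265, 236 and 299 in R60 leaves, against 649.7, 595 and 716 in GL leaves (-1.29 ± 0.13).

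Of 8 type-A response regulators of cytokinin 5 were called lower and none higher (median -1.05), where 8.53% and 10.7% of all genes were. ARR9 had 285, 192 and 203 normalised counts in R60 leaves, against 761, 757 and 824 in GL leaves (log2 fold change -1.80 ± 0.15, limma adjusted p = 3.37e-07), and ARR15 had 25, 28.7 and 16.7 in R60 leaves, against 139.7, 119.7 and 85.8 in GL leaves (-2.25 ± 0.55). Of 18 ethylene genes 3 were called higher and 1 lower, where 10.7% and 8.53% of all genes were. EFE (ACO4), an ethylene-forming oxidase, had 7112, 6428 and 6255 in R60 leaves, against 2948, 3436 and 2535 in GL leaves (1.16 ± 0.18), the receptor ETR2 had 26.8, 31.1 and 35.6 in R60 leaves, against 4.43, 2.99 and 7.54 in GL leaves (2.49 ± 0.45), and EIL1, a transcription factor of the pathway, had 339, 374 and 312 in R60 leaves, against 814, 809.7 and 848 in GL leaves (-1.27 ± 0.12). GSR 1, the cytosolic glutamine synthetase GLN1;1, was the gene called higher of 7 nitrogen assimilation genes, with 1077, 1579 and 1354 normalised counts in R60 leaves, against 263, 222 and 279 in GL leaves (log2 fold change 2.38 ± 0.19, limma adjusted p = 2.32e-07).

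Of 7 chlorophyll breakdown genes 1 was called higher and 1 lower, where 10.7% and 8.53% of all genes were. NYC1, a chlorophyll b reductase, had 3366, 4057 and 3677 in R60 leaves, against 1866, 1405 and 1850.3 in GL leaves (1.12 ± 0.12), and NYE1, the magnesium dechelatase of stay-green plants, had 203, 205 and 200.04 in R60 leaves, against 418, 406 and 415 in GL leaves (-1.02 ± 0.11). Of 20 tau glutathione transferases 5 were called higher and 1 lower (median -0.06), beside the same shares of all genes. GSTU4 had 156, 81.4 and 401 in R60 leaves, against 2.22, 0 and 4.71 in GL leaves (log2 fold change 6.04 ± 0.92, limma adjusted p = 9.99e-05), highest in R60 replicate 3, and GSTU18 had 525, 316 and 313 in R60 leaves, against 1315, 1173 and 1455 in GL leaves (-1.81 ± 0.17).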
